A study of Rattus norvegicus with 9 samples.

Results

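Voltage-gated sodium channel subunits were examined in bulk RNA-seq of rat lumbar spinal cord, as the 8 loci whose gene symbol is Scn1a, Scn2a, Scn3a, Scn8a, Scn9a, Scn2b, Scn3b or Scn4b. These are 8 of the 34890 loci in the deposited expression table, and each symbol belongs to a single locus. Values are in TPM, a level corrected for transcript length and scaled to a fixed total in each library. The sequencing depth behind them is unknown, because no counts were used here.

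Sprague Dawley rats of WT genotype formed 3 groups of 3 samples, each labelled as a biological replicate. The JA group was sham-operated and the SNI group received spared nerve injury, a model in which the tibial and common peroneal nerves are tied and cut and the sural nerve stays intact. Both were given normal saline by mouth. The PLM group had the same injury and received a mixture of paeoniflorin and liquiritin by mouth. All rats were male, and the cord was taken from the operated side at L3-L6. The labels give paeoniflorin as 20.65 mg/mL in every PLM sample, and liquiritin as 3.98, 3.99 and 3.100 mg/mL in PLM replicates 1, 2 and 3. The study's methods give a single liquiritin dose for the group, so the replicates were not taken as differently dosed. No uninjured group given the mixture was analysed here.

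A voltage-gated sodium channel is built from 1 large pore-forming alpha subunit and smaller beta subunits that alter its gating and its place in the membrane. The channels open when a neuron is depolarised and carry the rising phase of the action potential, and they are held at high density at the axon initial segment and the nodes of Ranvier by a scaffold of anchoring proteins. In the cord they are made mainly by neurons. Scn9a, Scn10a and Scn11a are best known from primary sensory neurons, whose cell bodies lie in the dorsal root ganglia and not in the cord.

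Some libraries differed in composition. Mitochondrially encoded protein genes took 25.3% to 32.8% of TPM in JA, 23.7% to 26.1% in SNI and 31.3% to 32.8% in PLM. The summed TPM of 8 general neuron markers was 1974 to 3573 in JA, 3252 to 4189 in SNI and 3065 to 3436 in PLM, with the lowest value in JA replicate 2. The summed TPM of 6 motor neuron markers was 72.9 to 227 in JA, 185 to 288 in SNI and 156 to 212 in PLM. The summed TPM of 4 Schwann cell markers ranged from 60.5 to 6286 and was highest in JA replicate 3, SNI replicate 2 and PLM replicate 3. The 3 skeletal muscle markers summed to 60.7 in SNI replicate 1 and to between 8.49 and 15.7 in the other libraries. Neuron and oligodendrocyte markers were present in every library, while the sensory neuron marker Mrgprd was listed at 0 in all 9. In bulk tissue, fewer cells of a type and less RNA per cell cannot be told apart.

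Among the members, Scn4b had the highest level, with a mean of 51.8 TPM over the 9 samples. Scn9a followed at 25.4, Scn2b at 17.2, Scn8a at 11.2, Scn3b at 11.1, Scn1a at 8.19, Scn2a at 4.51 and Scn3a at 3.30 TPM. Within single libraries Scn4b exceeded Scn9a in 9 of 9 samples, Scn1a exceeded Scn2a in 9 of 9 and Scn2a exceeded Scn3a in 9 of 9. Scn9a exceeded Scn2b in 7 of 9 samples, with ranges that overlapped. Scn8a and Scn3b could not be ordered, since Scn8a was the higher in 5 of 9 samples. The sum of the 5 pore-forming members was 35.0 to 69.1 TPM per library and the sum of the 3 beta members was 58.0 to 114 TPM.

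Among the pore-forming subunits, Scn1a encodes a channel carried by fast-spiking interneurons and by motor neurons. Its level was 9.42, 6.07 and 5.34 TPM in JA replicates 1 to 3, 14.7, 9.52 and 8.89 in SNI, and 5.77, 6.25 and 7.75 in PLM. SNI replicate 1 stood well above the rest, and the PLM values lay below all 3 SNI values and inside the JA range. Scn2a, a channel of unmyelinated axons and of the initial segment, was at 5.43, 4.24 and 3.74 TPM in JA, 6.27, 4.54 and 4.28 in SNI, and 3.47, 3.77 and 4.81 in PLM. The 3 groups overlapped. Scn3a, a channel abundant before birth and lower in adult neurons, was at 3.38, 2.79 and 2.94 TPM in JA, 3.88, 3.75 and 3.54 in SNI, and 3.09, 3.47 and 2.88 in PLM. All 3 SNI values were above every JA and PLM value.

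Scn8a encodes the main channel of adult nodes of Ranvier and initial segments. Its level was 13.4, 8.81 and 7.88 TPM in JA, 16.2, 12 and 14.1 in SNI, and 8.89, 9.81 and 9.91 in PLM. The PLM values lay closely together below the whole SNI range, while the JA values spread across both. Scn9a, whose channel sets the firing threshold of nociceptors, was at 23.6, 13.04 and 26.4 TPM in JA, 28.1, 27.4 and 27.8 in SNI, and 26.9, 27.5 and 27.6 in PLM. JA replicate 2, the library with the lowest sum of neuron markers, was by far the lowest. JA replicate 3, at 26.4 TPM, also had a neuron marker sum, 2387 TPM, below every SNI and PLM library. A link to neuron content was not tested. The SNI and PLM values of Scn9a were nearly alike.

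Among the beta subunits, Scn2b forms a disulfide link with the pore-forming subunit and affects how many channels reach the surface. It was at 20.5, 18.0 and 14.7 TPM in JA, 28.7, 16.7 and 19.1 in SNI, and 12.9, 12.1 and 12.2 in PLM. The PLM values were the 3 lowest of the 9. Scn3b, which is joined to the channel without that link, was at 12.2, 10.3 and 10.1 TPM in JA, 14.3, 11.9 and 12.5 in SNI, and 9.42, 10.04 and 9.69 in PLM. The PLM values were again the 3 lowest, although PLM replicate 2 differed from JA replicate 3 by little. Scn4b, the subunit linked to resurgent current in fast-firing neurons, was at 59.8, 29.6 and 38.9 TPM in JA, 71.5, 50.9 and 68.5 in SNI, and 44.8, 52.6 and 50.0 in PLM. It overlapped between all groups, and JA again held the lowest value in replicate 2.

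**Figure D1:**
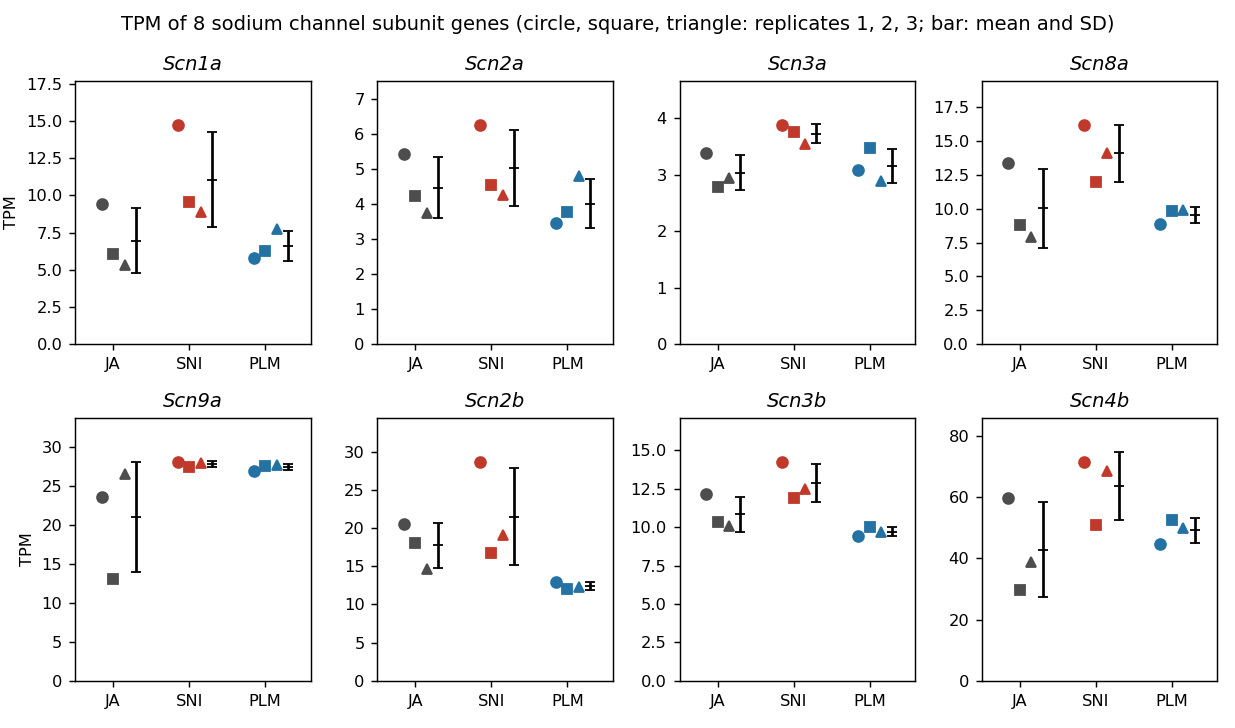
TPM of the 8 subunit genes in each sample by group, with replicates 1, 2 and 3 as circle, square and triangle and the group mean with its SD (n = 3) as the bar beside them; every axis starts at 0. For Scn2b and Scn3b the 3 PLM samples are the lowest of the 9, while for Scn9a the SNI and PLM samples lie between 26.9 and 28.1 TPM and JA replicate 2 is at 13.04.

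RefSeq promoter windows were found for 6 of the 8 members, and Scn1a and Scn3b were not matched. The windows of Scn2a and Scn8a overlap the span RefSeq gives to the gene itself and are not printed. The other 4 are shown, so that the neighbours Scn2b and Scn4b, of which only Scn2b had its 3 lowest values in PLM, can be compared, and with them Scn9a, at nearly the same level in SNI and PLM, and Scn3a, with all SNI values above the rest. Each window holds the 250 bases before the RefSeq start in GRCr8, at chr8:54322133-54322382 (+ strand) for Scn2b, chr8:54343623-54343872 (+ strand) for Scn4b, chr3:71701378-71701627 (- strand) for Scn9a and chr3:70666199-70666448 (- strand) for Scn3a. Capitals mark any of the motifs listed after the sequences.
Scn2b: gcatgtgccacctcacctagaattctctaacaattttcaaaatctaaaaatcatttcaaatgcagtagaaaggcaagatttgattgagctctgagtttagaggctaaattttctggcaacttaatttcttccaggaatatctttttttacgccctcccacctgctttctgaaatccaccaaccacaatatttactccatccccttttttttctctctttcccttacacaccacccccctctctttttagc
Scn4b: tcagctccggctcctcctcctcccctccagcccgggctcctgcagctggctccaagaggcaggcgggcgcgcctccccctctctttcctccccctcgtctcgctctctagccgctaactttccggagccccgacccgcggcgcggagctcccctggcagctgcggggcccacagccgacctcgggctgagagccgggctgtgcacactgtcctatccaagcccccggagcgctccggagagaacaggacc
Scn9a: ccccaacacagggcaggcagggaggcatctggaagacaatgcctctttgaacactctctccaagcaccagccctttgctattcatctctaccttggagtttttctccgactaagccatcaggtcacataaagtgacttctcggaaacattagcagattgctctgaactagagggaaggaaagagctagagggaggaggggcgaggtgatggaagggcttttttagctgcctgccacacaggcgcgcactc
Scn3a: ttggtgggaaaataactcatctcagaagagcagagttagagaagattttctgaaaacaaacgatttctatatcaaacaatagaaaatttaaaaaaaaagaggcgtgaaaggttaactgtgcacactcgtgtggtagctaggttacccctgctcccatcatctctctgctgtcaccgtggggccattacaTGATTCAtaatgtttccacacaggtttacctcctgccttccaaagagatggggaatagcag

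Both strands were searched for the GC box GGGCGG, the TATA box TATAAA, the E-box CACGTG, the AP-1 site TGANTCA, the cAMP response element core TGACG and the REST element part GGACAGC. These occur in 30.5%, 12.9%, 5.59%, 6.34%, 18.2% and 5.3% of 33469 rat promoter windows of that length. Of the printed windows only that of Scn3a held a match, 1 AP-1 site. Of those not printed, the Scn8a window held 6 GC boxes and the Scn2a window no match. The windows differ in composition: GC content was 38.8% for Scn2b, 71.6% for Scn4b, 52.4% for Scn9a, 41.6% for Scn3a, 39.6% for Scn2a and 86.0% for Scn8a, where the median window had 51.2%. Scn2b had 1 CpG, Scn4b 21, Scn9a 5, Scn3a 4, Scn2a 4 and Scn8a 53, where the median window had 5. A match is a description of the letters, and their absence in a window says nothing about which factors act there.

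To see what the mixture did in injured cord, the PLM group was compared with the SNI group. As deposited, Scn8a and Scn3b were lower in PLM, and all 8 members had a negative log2 fold change. The whole table moved the same way: 85.0% of the 15474 loci tested were below 0, with a median log2 fold change of -0.21 against -0.36 for the members. By limma on log2(TPM + 1), with Benjamini-Hochberg adjustment over all loci tested, 2 of 8 members were lower at an adjusted p under 0.05, against a background of 13.6% of loci. At an unadjusted p under 0.05, 5 of 8 members were lower against 35.8% of loci, and 5 of 8 had all PLM values below all SNI values against 41.9%. No member passed the study's thresholds of an unadjusted p under 0.05 with an absolute log2 fold change above 1, which 1.65% of loci passed.

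Scn8a fell from 14.1 ± 2.09 TPM (SD, n = 3) in SNI to 9.54 ± 0.562 in PLM, a log2 fold change of -0.51 (SE 0.116, limma adjusted p = 0.0389). Scn3b fell from 12.9 ± 1.25 to 9.72 ± 0.311 TPM, a log2 fold change of -0.37 (SE 0.0866, limma adjusted p = 0.0420). Both calls were lost when any 1 library other than SNI replicate 2 was left out, with limma adjusted p of 0.0740 to 0.127 for Scn8a and 0.0853 to 0.134 for Scn3b. Scn2b had the largest difference, -0.71 on the log2 scale (95% confidence interval -1.16 to -0.26), and its limma adjusted p was 0.0526. Its difference leaned on SNI replicate 1 and was -0.49 without that library. Scn1a differed by -0.64 (interval -1.12 to -0.17, limma adjusted p = 0.0728), and by -0.44 without SNI replicate 1.

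The remaining members did not pass the adjusted threshold. Scn4b differed by -0.36 on the log2 scale (interval -0.69 to -0.02). For Scn2a the difference was -0.26 (interval -0.66 to 0.14), or -0.12 without SNI replicate 1, and for Scn3a it was -0.19 (interval -0.44 to 0.06). Scn9a was held most closely, at 27.8 ± 0.335 TPM in SNI and 27.4 ± 0.376 in PLM (SD, n = 3), a difference of -0.02 with an interval of -0.15 to 0.11.

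Centring each library on its median log2(TPM + 1), which removes the shift shared by most loci, raised every member's difference by the same amount and left their order unchanged. No member passed an adjusted p under 0.05 by limma, against 0.814% of loci. At an unadjusted p under 0.05, 3 of 8 members differed, Scn8a and Scn2b downward and Scn9a upward, against 16.9% of loci. On these values Scn2b was at -0.46 (interval -0.91 to -0.02), Scn1a at -0.40 (interval -0.82 to 0.03) and Scn8a at -0.26 (interval -0.51 to -0.02). Without SNI replicate 1 the centred difference was -0.26 for Scn2b and -0.21 for Scn1a. Scn2b, Scn1a and Scn8a had all PLM values below all SNI values, against 9.73% of loci, but by narrow gaps. Centred over all 9 samples, the highest PLM and lowest SNI values were 3.995 and 4.025 for Scn2b and 3.201 and 3.209 for Scn1a. For Scn8a they were 3.546 and 3.582. Scn9a turned from -0.02 to 0.23 (interval 0.09 to 0.36, unadjusted p = 0.00569, limma adjusted p = 0.134), with all PLM values above all SNI values, which held for 14.1% of loci. Leaving out each library in turn kept the centred Scn9a difference between 0.21 and 0.25. Scn3a also turned in sign, to 0.06, while Scn2a, Scn3b and Scn4b lay between -0.12 and -0.01. Leaving out 1 library at a time, these small values ran from 0.0082 to 0.13 for Scn3a (lowest without PLM replicate 2, 0.03 without PLM replicate 1, highest without PLM replicate 3), from -0.17 to -0.07 for Scn3b (nearest 0 without SNI replicate 1) and from -0.25 to -0.03 for Scn4b (farthest from 0 without SNI replicate 2, nearest without SNI replicate 1 or 3).

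**Figure D2:**
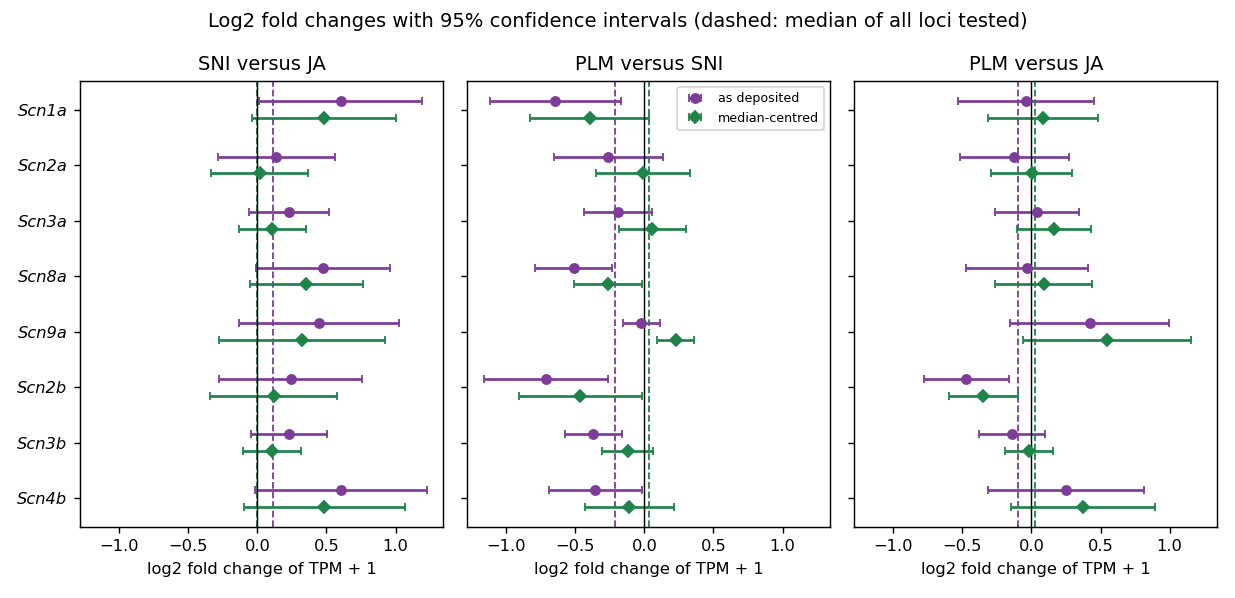
Log2 fold change of TPM + 1 for each subunit gene in the 3 comparisons, with 95% confidence intervals, on values as deposited (circles) and median-centred (diamonds); dashed lines mark the median of all loci tested on each scale and the solid line marks 0. In PLM versus SNI every point moves to the right by the same amount on centring, Scn9a from -0.02 to 0.23 and Scn2b from -0.71 to -0.46.

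A subunit's share of the summed TPM of its class does not move with a shift common to all genes. Scn9a made up 40.6% to 47.9% of the 5 pore-forming members in SNI and 52.1% to 55.9% in PLM. Scn8a made up 21.0% to 24.0% in SNI and 18.5% to 19.3% in PLM, and Scn1a 15.2% to 21.3% in SNI and 11.99% to 14.6% in PLM. The groups did not overlap for these 3 subunits. The mean difference, PLM minus SNI, was 8.74 percentage points for Scn9a, -3.97 for Scn8a and -4.73 for Scn1a. That of Scn1a was -2.93 without SNI replicate 1. For each of these class shares the two-sided exact permutation test gave p = 0.1, the smallest that 3 against 3 samples allow, and 24 such tests were run, so none can pass a threshold of 0.05. The shares of 1 class sum to the whole, so a higher share of Scn9a and lower shares of the others are not separate results. As shares of all 8 members the differences were 4.84 percentage points for Scn9a, -0.999 for Scn8a and -1.47 for Scn1a. These were not tested. In JA the Scn9a share ran from 37.3% to 57.0% and covered both other groups.

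Among the 3 beta members, Scn4b took 62.5% to 68.5% in SNI and 66.7% to 70.4% in PLM, and Scn2b 19.1% to 25.1% in SNI and 16.1% to 19.3% in PLM. These ranges overlapped. Against JA the shares of this neighbouring pair, whose promoters are shown above, were apart: Scn2b was at 22.2% to 31.1% in JA, a mean difference of -7.96 percentage points in PLM, and Scn4b at 51.1% to 64.7%, a difference of 9.90 (exact permutation p = 0.1 for each). Without JA replicate 2 these differences were -5.13 and 5.98. Scn3b took 13.4% to 14.0% in PLM, inside the 12.5% to 14.9% of SNI.

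**Figure D3:**
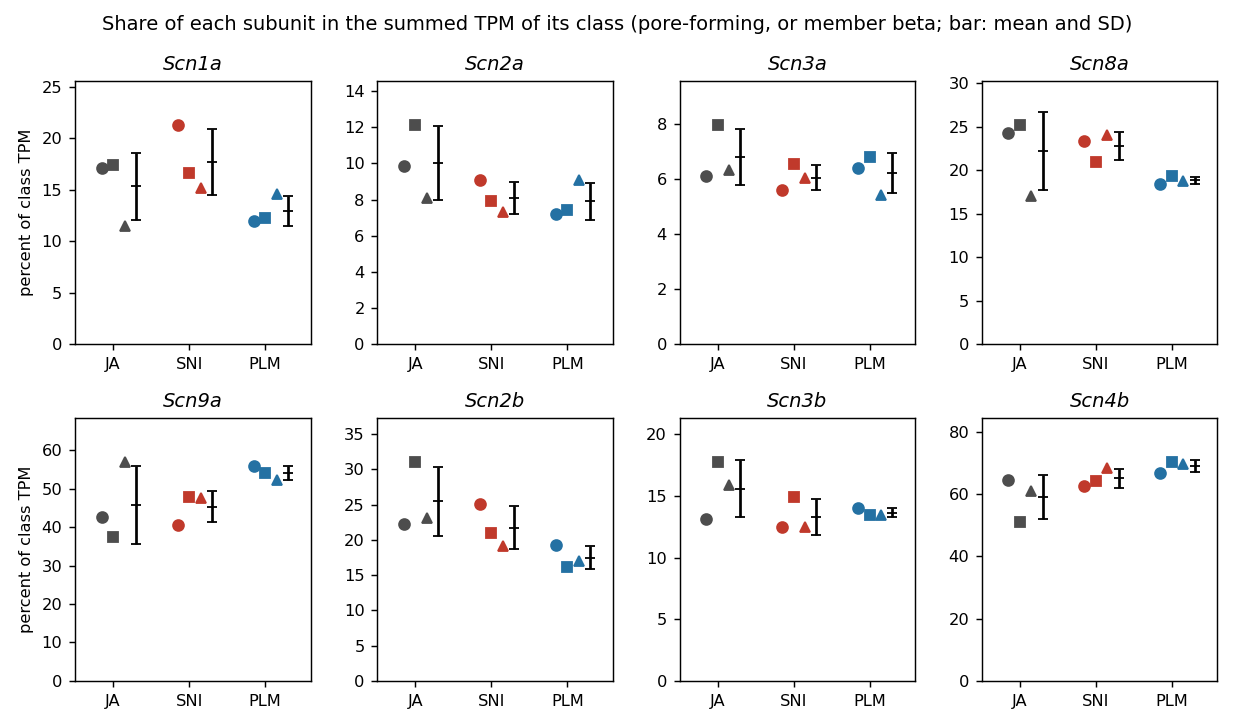
Share of each subunit in the summed TPM of its class (5 pore-forming members, or 3 beta members) in each sample, in percent, with the group mean and SD (n = 3) as the bar; axes start at 0. The PLM samples lie above the SNI samples for Scn9a and below them for Scn1a and Scn8a, and the JA samples spread over both.

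To see what the injury did, the SNI group was compared with the JA group. All 8 members had a positive log2 fold change as deposited, from 0.14 for Scn2a to 0.61 for Scn4b, with a median of 0.34. Of all 15557 loci tested 76.4% were above 0, with a median of 0.12. By limma 0 of 8 members passed an adjusted p under 0.05, and the background was 0.0% of loci. At an unadjusted p under 0.05 only Scn1a was higher, 1 of 8 against 6.11% of loci. No member passed the study's thresholds, which 0.688% of loci passed. Scn3a and Scn9a had all SNI values above all JA values, 2 of 8 against 12.1% of loci.

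The intervals were wide. Scn4b was at 0.61 (interval -0.02 to 1.23), Scn1a at 0.60 (interval 0.01 to 1.19, limma adjusted p = 0.614), Scn8a at 0.48 (interval -0.01 to 0.96) and Scn9a at 0.44 (interval -0.13 to 1.02). Without JA replicate 2 the differences of Scn9a and Scn4b were 0.15 and 0.38, and without SNI replicate 1 that of Scn1a was 0.39. Median-centred, the members stayed above 0, as did 48.6% of loci, and lay between 0.02 for Scn2a and 0.48 for Scn4b and Scn1a. On these values only Scn3a had all SNI values above all JA values, 1 of 8 against 4.0% of loci, and no member was higher at an unadjusted p under 0.05 (0.0638 for Scn1a), against 1.7%. The nearest SNI and JA values of Scn3a, centred over all 9 samples, were 2.086 and 2.055. Neuron markers were read in the same contrast. As deposited, all 8 general neuron markers were above 0 with a median of 0.35, and the 5 motor neuron markers tested were above 0 with a median of 0.96, none past an adjusted p under 0.05 by limma, with 1 and 2 of them past an unadjusted p under 0.05, against 6.11% of loci. Schwann cell markers had a median of 0.79, the 2 sensory ganglion markers tested one of 0.78 and skeletal muscle markers one of 0.59, with 0 of these past an adjusted or an unadjusted p under 0.05 by limma. Their part in the members' differences was not tested.

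The PLM and JA groups were compared as well, and the 3 comparisons share samples in pairs, so their values are set side by side and not counted as separate evidence. For Scn2b the difference, PLM minus JA, was -0.47 on the log2 scale (interval -0.78 to -0.16, unadjusted p = 0.00893), with a limma adjusted p of 0.342. No member passed an adjusted p under 0.05 by limma, against 0.0195% of loci, and 1 of 8 was lower at an unadjusted p under 0.05, against 10.5%. No member passed the study's thresholds, which 0.938% of the 15349 loci passed. Scn2b and Scn3b had all PLM values below all JA values, 2 of 8 against 15.7% of loci, and Scn9a had all PLM values above all JA values, 1 of 8 against 2.0% of loci.

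The difference of Scn9a, PLM minus JA, was 0.42 (interval -0.15 to 1.00) and that of Scn4b was 0.25 (interval -0.32 to 0.82). Without JA replicate 2 they were 0.13 and 0.02. The other 5 members lay between -0.14 and 0.04 on the log2 scale, and Scn1a, Scn2a and Scn8a turned from below to above 0 on centring. Scn3b, at -0.14, ran from -0.19 to -0.06 when 1 library was left out at a time. Median-centred, Scn2b was at -0.35 (interval -0.60 to -0.10) and still below JA in all samples, against 6.93% of loci, and Scn9a was at 0.55 (interval -0.06 to 1.15) and still above, against 9.51%. Centred over all 9 samples, the nearest PLM and JA values were 3.995 and 4.045 for Scn2b and 4.91 and 4.854 for Scn9a. Scn3b was at -0.02 and overlapped JA. On the deposited values, the PLM samples of Scn2b and Scn3b thus lay below both other groups, and those of Scn1a and Scn8a below SNI and within the range of JA. Marker lists were read in this comparison too. As deposited, all 6 astrocyte markers were below 0 with a median of -0.96 (summed TPM 660 to 1268 in JA), 6 at an unadjusted p under 0.05, against 10.5% of loci, and 0 past the adjusted threshold by limma. The 5 motor neuron markers tested were above 0 with a median of 0.58, and 0 of them had an unadjusted p under 0.05. The 3 meningeal and fibroblast markers were below 0 with a median of -0.96, 1 of them at an unadjusted p under 0.05 and 0 past the adjusted threshold by limma. Of the 8 general neuron markers 1 was below 0 as deposited, against 71.2% of loci, with a median of 0.27 against -0.10. Centred, 0 were below 0, against 43.7% of loci, with a median of 0.39 against 0.03. On neither scale had any an unadjusted p under 0.05. The 5 markers of inhibitory and excitatory neurons had medians of 0.09 as deposited and 0.21 centred. Of these 0 and 2 had an unadjusted p under 0.05, against 11.8% and 9.98% of loci. The part of these lists in the members' differences was not tested.

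Of the sodium channel genes outside the members, Scn4a, the channel of skeletal muscle, and Scn10a and Scn11a, those of nociceptor cell bodies, were between 0 and 0.13 TPM in all samples. Scn7a, a sodium sensor related to the family, was at 3.72 TPM in JA replicate 3, 3.81 in SNI replicate 2 and 4.45 in PLM replicate 3, and at 0.34 to 1.19 in the other libraries. Those are the 3 libraries with the most Schwann cell marker RNA, and Scn7a did not separate the groups.

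The genes that hold the channels in place were also read. Of 11 anchoring genes 10 were tested, and 4 fell in PLM versus SNI as deposited, against 13.6% of all loci: Nfasc by 0.54, Cntn1 by 0.48, Nrcam by 0.47 and Cntn2 by 0.38 on the log2 scale (limma adjusted p = 0.0254, 0.0197, 0.0479 and 0.0490). Nfasc, Nrcam, Cntn1 and Cntn2 are cell adhesion molecules of the node and its flanks. The scaffold genes Ank3, at -0.12, and Sptbn4, at -0.37, did not pass. The list had a median of -0.40 as deposited and -0.15 centred, and no anchoring gene passed on centred values by limma. On those values 4 of 10 had an unadjusted p under 0.05, against 16.9% of loci, with Nfasc at -0.29, Cntn1 at -0.23, Nrcam at -0.23 and Hapln2 at 0.19. Astrocyte markers moved in the same comparison, with all 6 lower as deposited and a median of -1.24 (summed TPM 1000 to 1221 in SNI and 431 to 493 in PLM). On centred values all 6 were below 0, against 42.4% of loci. Of the 6, 5 were lower at an adjusted p under 0.05 by limma on those values, against 0.685% of loci.

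Of 11 genes that regulate the channels, 3 fell in PLM versus SNI as deposited, against 13.6% of all loci. These were Nedd4l, a ubiquitin ligase that removes channels from the membrane (-0.47, limma adjusted p = 0.0417), Bace1, a protease that cuts beta subunits (-0.46, limma adjusted p = 0.0334), and Fyn, a kinase that phosphorylates channels (-0.35, limma adjusted p = 0.0364). Fgf13, a cytoplasmic partner of the channel, was at 0.03 and S100a10, a carrier of channels to the membrane, at -0.01. The list's median was -0.28 as deposited and -0.03 centred, and no regulator passed on centred values by limma. On those values 2 of 11 had an unadjusted p under 0.05, against 16.9% of loci, with Bace1 at -0.21 and Fgf13 at 0.28. General neuron markers gave 0 of 8 calls by limma in PLM versus SNI and 1 at an unadjusted p under 0.05, where 35.8% of loci were lower at that level, with a median of -0.18 as deposited and 0.07 centred. The 5 markers of inhibitory and excitatory neurons were below 0 as deposited, with a median of -0.27, and 0 passed the adjusted threshold by limma while 3 had an unadjusted p under 0.05, against the same 35.8%, Slc32a1 at -0.38, Slc6a5 at -0.34 and Slc17a6 at -0.27. Centred, their median was -0.03 and 0 had an unadjusted p under 0.05. Of the 5 motor neuron markers tested, 1 was lower by limma as deposited, the choline transporter Slc5a7 (-0.57, limma adjusted p = 0.0303), and the list's median was -0.49 as deposited and -0.24 centred. Schwann cell markers had a median of -0.67 and meningeal and fibroblast markers one of -0.65 as deposited, with 0 calls by limma in either list and 0 at an unadjusted p under 0.05. Centred, 5 of 6 microglia markers had an unadjusted p under 0.05, with a median of 0.275 and 1 below 0. So did 3 of 6 oligodendrocyte markers, with a median of 0.20, against 16.9% of loci. As deposited, 1 of 6 microglia markers was lower by limma, and 2 of 3 oligodendrocyte precursor markers had an unadjusted p under 0.05. Skeletal muscle markers had a median of -0.75, with 0 at that level. The part of these marker lists in the members' differences was not tested.

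**Figure D4:**
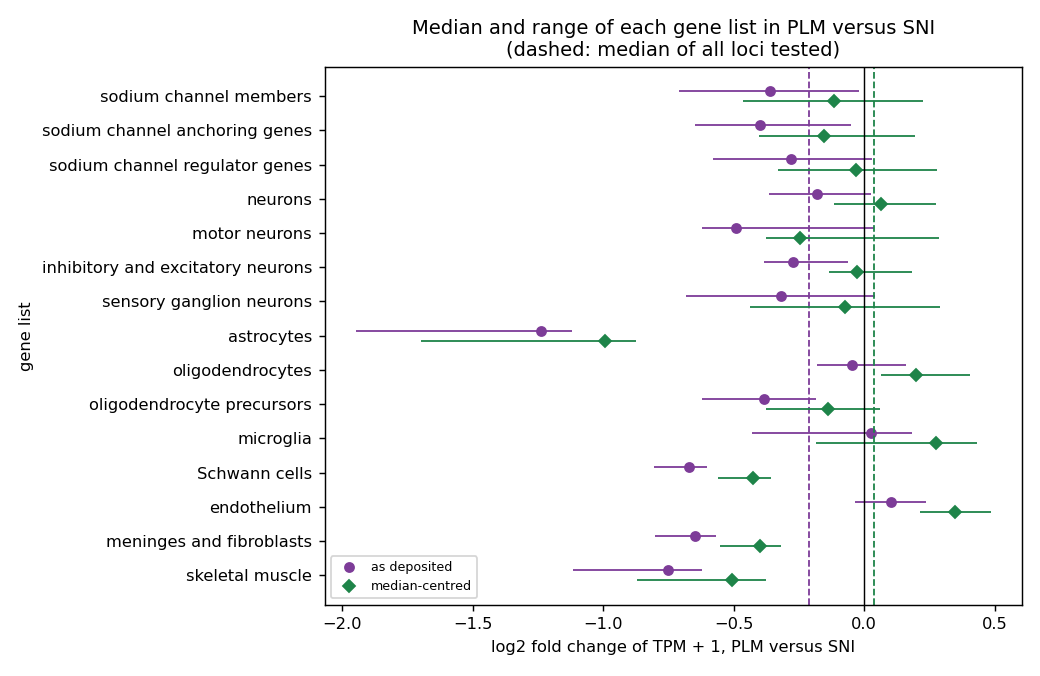
Median (point) and range (line) of the log2 fold change of TPM + 1 in PLM versus SNI for the members and for lists of partner or marker genes, as deposited (circles) and median-centred (diamonds); dashed lines mark the median of all loci tested. The members' medians, -0.36 and -0.11, lie between those of the anchoring genes and the regulator genes, and the astrocyte list lies apart at -1.24 and -0.99.

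Across the 9 samples, on median-centred log2 values, Pearson's r between members ran from -0.41 for Scn9a with Scn2b to 0.89 for Scn1a with Scn8a. Scn8a also went with Scn3b at 0.84 and with Scn4b at 0.83, and Scn9a with Scn3a at 0.73. Scn2b and Scn4b, which are next to each other on chromosome 8, had an r of 0.17. On values as deposited r ran from -0.13 for Scn9a with Scn2b to 0.94 for Scn1a with Scn8a, and was 0.55 for Scn3a with Scn2b, which had -0.26 centred, and 0.45 for Scn2b with Scn4b. These are descriptions over 9 samples that hold the group differences and the libraries' composition.

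Among 9805 named loci that averaged 5 TPM or more, the 5 whose centred pattern was most like the members' mean were Atp6v1a (r = 0.98), Acvr1b (0.98), Lgi2 (0.97), Chpf2 (0.96) and Nlgn2 (0.96). Spearman's rho for them was 0.983, 0.967, 0.983, 0.833 and 0.967, in that order. The fifth highest rho of all was 1.0, so none of the 5 was among the top 5 by rho. On values as deposited, 2 of them were among the top 5 by Pearson's r. For single members the most alike locus was Negr1 for Scn1a (0.98), Hdlbp for Scn8a (0.98), Tmem60 for Scn9a (0.98), Vps45 for Scn3a (0.98), Tex2 for Scn2a (0.94), LOC100910575 for Scn2b (0.97), Arel1 for Scn3b (0.96) and Syt2 for Scn4b (0.99). Syt2 is a synaptotagmin of fast-releasing synapses.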

How the data were processed

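Total RNA from ipsilateral L3-L6 cord of 9 rats was sequenced. Per the study's methods and the submitters' processing notes, reads were cleaned with fastp 0.19.5, mapped with HISAT2 2.0 and quantified with StringTie 1.3.3b. The notes name GRCh38.p13, a human build, while the table carries rat Ensembl identifiers, so no coordinates were taken from it. The authors deposited TPM values for 34890 loci. TPM were used as log2(TPM + 1), for loci averaging 1 TPM or more in the samples fitted, and tested with limma 3.58.1 with a variance trend (R 4.3.3), 2 groups at a time, adjusted over all loci by Benjamini-Hochberg. The study's DESeq2 needs counts and was not run. Fold changes on this scale understate changes of low genes. Shares were tested by exact permutation (scipy 1.17.1). The scripts were tested on simulated data. No sample's column repeated another's.

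The members, lists and tests were chosen with earlier results of these data known. Named genes were the 8 members, the partner lists, and by rule the 5 loci most correlated with the members' mean and the top locus per member. Cntnap2 and Pecam1 had no row. The labels call the samples biological replicates. Same-numbered samples of different groups correlated at -0.05 to 0.13, so the numbers were not taken as pairs. Alternatives were median-centring, quantile normalization, removal of 13 mitochondrial genes, a pseudocount of 0.1, other filters, all 9 samples in 1 fit, a replicate block, shares of all 8 members and leaving out each sample. Some sodium channel genes outside the members are not reported here.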

Additional observations from a re-analysis of the deposited data

How the results depend on the processing

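No member passed the study's thresholds in any comparison under any alternative run, and no member passed an adjusted p under 0.05 by limma in SNI versus JA or PLM versus JA. In PLM versus SNI the count of 2 members was 0 with median-centred values, quantile normalization, without mitochondrial genes, with no filter, with all 9 samples fitted, with the replicate block and with the replicate block on median-centred values. It was 3 with a pseudocount of 0.1 or 1 TPM required in every sample, Scn2b being the addition (limma adjusted p = 0.0488 and 0.0373). Leaving out 1 library gave 0 to 4; the 4 came without SNI replicate 2. The labels do not say whether the replicate numbers pair the samples. Same-numbered samples correlated at -0.05 to 0.13 and others at -0.19 to 0.14, which cannot exclude a batch shared by number. Whether the replicate block fits the design is therefore unknown.

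Signs turned for these small differences. In PLM versus SNI, Scn3a was 0.058 median-centred and 0.037 after quantile normalization (0.058 with the replicate block on centred values), and Scn9a was 0.23 and 0.20 (0.23 with that block), and 0.12 without mitochondrial genes. In PLM versus JA, Scn1a was 0.084 median-centred, 0.091 quantile-normalized, 0.012 without mitochondrial genes and 0.084 with the centred block; Scn8a was 0.090, 0.097, 0.020 and 0.090; Scn2a was 0.0018 centred, with or without the block. Leaving out each library, PLM versus JA ran from -0.19 to 0.17 for Scn1a, -0.23 to 0.00037 for Scn2a, -0.016 to 0.099 for Scn3a and -0.17 to 0.17 for Scn8a. SNI versus JA for Scn2a ran from -0.0045 to 0.26. On centred values, an alternative chosen after seeing the data, PLM versus SNI for Scn2a ran from -0.10 to 0.11. Centring adds the same amount to every member of a comparison, so by construction it turns differences close to 0. The cause of the other turns, some from fits with fewer samples, was not tested. Depth is unknown, and 3 samples a group limit precision.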
